A study of Homo sapiens with 8 samples.

Results

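The ERBB receptors and their ligands were described here as 10 of the 54261 genes of the count table, taken by gene symbol: the 4 receptors EGFR, ERBB2, ERBB3 and ERBB4, and the 6 ligands AREG, EREG, TGFA, HBEGF, BTC and EPGN. All 10 had a row, and all 10 were kept by the filter on low counts in both comparisons. Total RNA was sequenced in 8 libraries of human cell lines at passage 5. NCM460 and HIEC6 are lines labelled as normal intestinal epithelium and were untreated (n = 2 lines). DLD1, HCT116 and HCT8 are colorectal cancer (CRC) lines, each with 1 untreated library and 1 library labelled hypoxia (n = 3 lines per group). Each line and condition was 1 library, and the replicates of a group were different lines. A p-value between groups thus sets the group difference against the spread between lines. Where libraries are paired by line, it sets the hypoxia difference against how much that difference varies between lines. The oxygen level and the duration of hypoxia were not given in the sources used here.

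ERBB receptors are cell-surface tyrosine kinases that act as pairs. EGFR binds all of the ligands counted here. ERBB2 has no known ligand and serves as the preferred partner, ERBB3 has a weak kinase and signals through its partner, and ERBB4 binds neuregulins and some of the EGF-like ligands. The ligands are made as membrane-bound precursors and are cut free by ADAM proteases. Signalling runs through adaptors to the ERK and PI3K pathways. In the gut the family drives renewal of the epithelium, and AREG and EREG are known in colorectal cancer as ligands whose level goes with the response to EGFR antibodies.

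The 4 ligand genes EPGN, EREG, AREG and BTC lie in this order on chromosome 4 within 545547 bases (GRCh37), the first 3 on the plus strand and BTC on the minus strand. Their proximal promoters are shown because AREG and EREG were both high in NCM460, DLD1 and HCT116 and low in HIEC6 and HCT8, and BTC and EPGN are their neighbours. Each is the 150 bases before the start of the gene from RefSeq (GRCh38.p14), 5′ to 3′ on the strand of the gene. Capitals mark TATAAA, and TGACG or the full cAMP-response element TGACGTCA that contains it.
EPGN: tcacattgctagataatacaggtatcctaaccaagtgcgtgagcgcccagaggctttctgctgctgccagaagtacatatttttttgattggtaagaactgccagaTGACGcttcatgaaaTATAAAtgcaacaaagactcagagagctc
EREG: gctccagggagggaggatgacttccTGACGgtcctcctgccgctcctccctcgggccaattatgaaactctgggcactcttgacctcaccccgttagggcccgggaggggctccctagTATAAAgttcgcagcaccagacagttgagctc
AREG: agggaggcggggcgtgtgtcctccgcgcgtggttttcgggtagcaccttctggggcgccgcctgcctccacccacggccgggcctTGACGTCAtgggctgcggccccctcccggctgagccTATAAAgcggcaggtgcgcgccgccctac
BTC: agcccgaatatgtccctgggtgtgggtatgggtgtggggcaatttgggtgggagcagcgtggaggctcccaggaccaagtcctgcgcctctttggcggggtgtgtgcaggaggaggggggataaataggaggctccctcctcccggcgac
They are at chr4:74308320-74308469 (EPGN, plus strand), chr4:74364995-74365144 (EREG, plus), chr4:74444986-74445135 (AREG, plus) and chr4:74794524-74794673 (BTC, minus).

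TATAAA begins 29 bases before the start in AREG and EPGN and 32 bases before it in EREG, and was not in the BTC window. The full TGACGTCA of AREG begins 65 bases before the start, and the shorter TGACG begins at 125 bases in EREG and 44 bases in EPGN. Searched on both strands in the 250 bases before the start, TATAAA was present in 10.7% of 35116 RefSeq promoters, TGACG in 21.2% and TGACGTCA, whose matches also count as TGACG, in 1.65%. Of the cores of the hypoxia-response element, GCGTG was present in all 4 windows of the cluster and in 32.2% of all promoters, and ACGTG, present in 18.5% of promoters, was in no window of a member. Windows were given for 9 of the 10 genes, without ERBB3. These matches describe the sequence and are not binding sites.

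Total counts ranged from 45519306 to 57374239 per library. Levels are given as CPM, counts scaled to a common library total, and 3 counts, taken as the floor, correspond to 0.0523 to 0.0659 CPM. Both normal libraries stood apart from their label in a measure that touches the values below. Across genes, log2(CPM + 1) of the library labelled NCM460 correlated with HCT116 at r = 0.994 and with HIEC6, the other normal line, at r = 0.924. The library labelled HIEC6 had 0.176 CPM of EPCAM and 3.03 CPM of CDH1, defining epithelial genes, and 1223 CPM of the mesenchymal gene VIM. The 9 mesenchymal markers summed to 1465 CPM in HIEC6, mostly VIM, and to 13.7 to 111 CPM in the other untreated lines. COL1A2, COL3A1 and COL6A3 were at 0.458, 1.16 and 0.0882 CPM in HIEC6, below NCM460 at 7.99, 3.98 and 4.86 CPM. The other mesenchymal markers were highest in HIEC6 among the untreated lines. The 9 epithelial markers summed to 8024 CPM in HIEC6 and 4942 to 11842 CPM in the other untreated lines, mostly KRT8 and KRT18. CA9, a hypoxia-induced carbonic anhydrase, was at 0.0195 CPM in untreated and 4.22 CPM in hypoxic DLD1, at 0.115 and 18.8 in HCT116 and at 0.0760 and 3.91 in HCT8, and the 8 genes of the hypoxia check list summed to 1649, 6312 and 3426 CPM against 825, 455 and 603 without it.

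Across the untreated lines, the receptors EGFR and ERBB2 and the ligand HBEGF ranged least, whereas ERBB3 and the ligands AREG, EREG, BTC and EPGN ranged over more than an order of magnitude. The highest level divided by the lowest was 1.47 for EGFR, 2.13 for HBEGF, 2.54 for ERBB2, 5.01 for TGFA, 19.4 for BTC, 70.6 for EREG, 136 for ERBB3 and 175 for AREG. For EPGN it was 146, with a counting interval of 40.1 to 1213, on 315 counts in HIEC6 against 2 in HCT8. For EREG, ERBB3, AREG, BTC, TGFA and ERBB2 the lowest line was HIEC6.

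EGFR (ENSG00000146648, chromosome 7, 55086710 to 55279321, plus strand, GRCh37) was at 159 CPM in NCM460 and 147 in HIEC6, and at 108 CPM in DLD1, 142 in HCT116 and 109 in HCT8. Under hypoxia it was at 129 CPM in DLD1, 246 in HCT116 and 108 in HCT8. Both normal lines lay above all 3 untreated CRC lines, and hypoxic HCT116 lay above every other library.

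ERBB2 (ENSG00000141736, chromosome 17, 37844167 to 37886679, plus strand), the receptor without a ligand, was at 137 CPM in NCM460 and 118 in HIEC6, and at 241 CPM in DLD1, 146 in HCT116 and 298 in HCT8, and under hypoxia at 262, 84.7 and 285 CPM in DLD1, HCT116 and HCT8. All 3 untreated CRC lines lay above both normal lines, HCT116 by a small margin over NCM460, whose ratio to it was 0.938 (95% counting interval 0.908 to 0.969). ERBB2 shares 571 exonic bases with MIEN1 and 144 with PGAP3 on the other strand, and whether reads were counted by strand was not given in the sources used here.

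ERBB3 (ENSG00000065361, chromosome 12, 56470583 to 56497289, plus strand), the receptor with a weak kinase, was at 81.1 CPM in NCM460 and 1.71 in HIEC6, and at 137 CPM in DLD1, 63.3 in HCT116 and 233 in HCT8. Under hypoxia it was at 149 CPM in DLD1, 37.7 in HCT116 and 203 in HCT8. HIEC6 stood apart at 0.0211 of the NCM460 level (0.0171 to 0.0258), and among the CRC lines the order HCT8, DLD1, HCT116 held in both conditions. ERBB2 had that order too.

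ERBB4 (ENSG00000178568, chromosome 2, 212240442 to 213403565, minus strand) was close to the floor. Without treatment it had 0 counts in NCM460 and 12 in HIEC6, 1 count in DLD1, 20 in HCT116 and 0 in HCT8, and 1, 58 and 5 counts in DLD1, HCT116 and HCT8 under hypoxia. A count of 0 allows up to 0.0610 CPM in NCM460 and 0.0570 CPM in HCT8. HCT116 had the highest level in both conditions, at 0.383 and 1.05 CPM.

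AREG (ENSG00000109321, chromosome 4, 75310853 to 75320722, plus strand), amphiregulin, was at 405 CPM in NCM460 and 2.31 in HIEC6, and at 158 CPM in DLD1, 178 in HCT116 and 16.6 in HCT8. Under hypoxia it was at 101 CPM in DLD1, 279 in HCT116 and 11.4 in HCT8. The normal lines held both the highest and the lowest level of the 8 libraries. In the GRCh37 annotation AREG has a near copy, AREGB, whose transcript is 99.919% identical over 1234 aligned bases, and the count table had no row for it, so how reads shared by the copies were counted is uncertain.

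EREG (ENSG00000124882, chromosome 4, 75230862 to 75254466, plus strand), epiregulin, was at 455 CPM in NCM460 and 10.2 in HIEC6, and at 681 CPM in DLD1, 720 in HCT116 and 31.3 in HCT8. Under hypoxia it was at 500 CPM in DLD1, 819 in HCT116 and 15.2 in HCT8. NCM460, DLD1 and HCT116 formed a high range and HIEC6 and HCT8 a low one, as for AREG. NCM460 and HCT116, alike across genes, differed here: NCM460 had 2.28 times the AREG of HCT116 (2.22 to 2.33) and 0.632 times its EREG (0.621 to 0.642), so that EREG counts per AREG count were 1.12 in NCM460 and 4.05 in HCT116. The other members with at least 10 counts in both libraries had NCM460 to HCT116 ratios from 0.730 (BTC) to 1.28 (ERBB3).

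TGFA (ENSG00000163235, chromosome 2, 70674416 to 70781325, minus strand), transforming growth factor alpha, was at 117 CPM in NCM460 and 36.4 in HIEC6, and at 182 CPM in DLD1, 95.6 in HCT116 and 56.9 in HCT8. Under hypoxia it was at 207 CPM in DLD1, 267 in HCT116 and 56.5 in HCT8. Unlike AREG and EREG, it was at 36.4 CPM or more in every library.

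HBEGF (ENSG00000113070, chromosome 5, 139712428 to 139726188, minus strand), the heparin-binding ligand, was low and even, from 6.36 CPM in HCT8 to 13.6 in DLD1 without treatment and from 5.91 (HCT8) to 13.8 (HCT116) under hypoxia. BTC (ENSG00000174808, chromosome 4, 75669969 to 75719733, minus strand), betacellulin, was at 5.98 CPM in NCM460 and 0.723 in HIEC6, and at 14.1 CPM in DLD1, 8.19 in HCT116 and 4.88 in HCT8. Under hypoxia it was at 8.10, 1.93 and 2.53 CPM in these CRC lines. The hypoxic level of each line was below its own untreated level. EPGN (ENSG00000182585, chromosome 4, 75174187 to 75182506, plus strand), epigen, had 315 counts in HIEC6 (5.55 CPM) and 2 to 20 counts in the other 7 libraries (0.0380 to 0.407 CPM). Of the 6 member ligands, it alone had its highest level in the line where AREG, EREG and BTC had their lowest. That level was 13.7 times the NCM460 level (8.70 to 22.7).

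**Figure D1:**
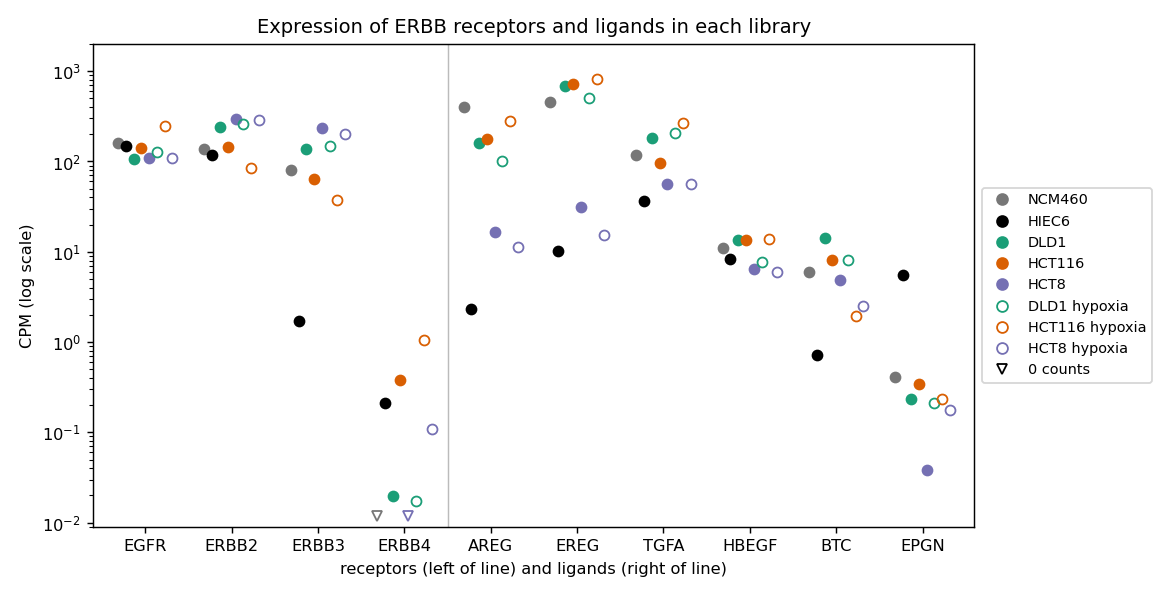
CPM (log axis) of each gene in each library; every point is 1 library, filled for untreated and open for hypoxia, and triangles mark 0 counts. Over the untreated lines, EGFR spans 108 to 159 CPM and ERBB2 118 to 298 CPM. AREG spans 2.31 to 405 CPM and EREG 10.2 to 720 CPM over the same lines.

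Levels of different genes were compared per length, as CPM per kilobase of exon, with the exons of all annotated transcripts merged. On this scale the 6 ligands together had 11.8 times the summed level of the 4 receptors in NCM460, 9.18 times in HCT116 and 6.29 times in DLD1, but 0.737 times in HIEC6 and 0.560 times in HCT8. Under hypoxia the ratio stood at 4.25 for DLD1, 13.8 for HCT116 and 0.465 for HCT8. The size of these ratios depended on the exon lengths used. By CPM, without division by length, ligands and receptors summed to 994 and 376 in NCM460, 1015 and 351 in HCT116, and 1050 and 485 in DLD1. They summed to 63.5 and 267 in HIEC6 and to 116 and 639 in HCT8, all without treatment. The ratio followed AREG and EREG, which made up 91.6%, 82.1% and 89.6% of the ligand sum in NCM460, DLD1 and HCT116. In HIEC6 TGFA had the largest share, 48.3%, and in HCT8 it had 37.2%, against 32.4% for AREG and 17.6% for EREG.

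Among receptors, ERBB2 had the largest share per kilobase of exon in all 5 untreated lines, from 43.99% in NCM460 to 55.9% in DLD1. ERBB2 was 1.33 times EGFR in NCM460 and 1.23 times in HIEC6, and 3.46, 1.59 and 4.23 times EGFR in DLD1, HCT116 and HCT8. In hypoxic HCT116 this ratio was 0.532, the one library where EGFR exceeded ERBB2 per kilobase, and it was 3.15 in hypoxic DLD1 and 4.07 in hypoxic HCT8. The EGFR share of receptors in HCT116 was 31.3% without treatment and 57.3% under hypoxia. By counts, without division by length, the ratio was also below 1 in NCM460 (0.862) and HIEC6 (0.798), so that this order depended on the exon lengths used. No interval beyond counting error can be given for 1 library per condition.

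**Figure D2:**
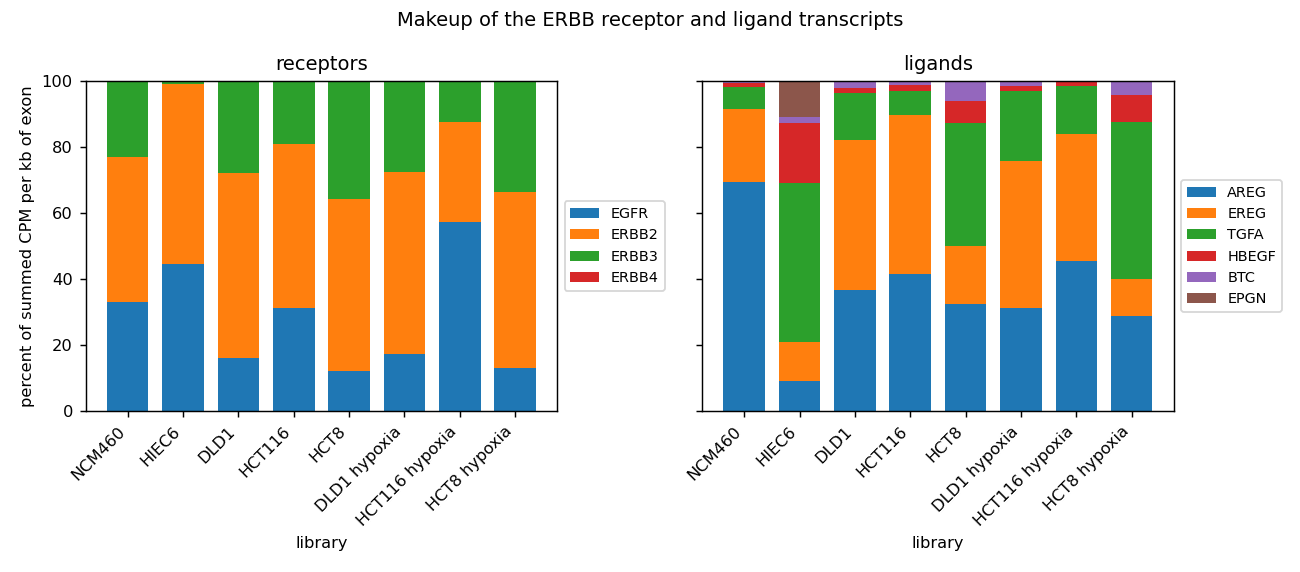
Share of each receptor (left) and ligand (right) in the summed CPM per kilobase of exon, in percent, for each of the 8 libraries; each bar is 1 library. ERBB2 is the largest receptor share except in hypoxic HCT116 (EGFR 57.3%), and TGFA is the largest ligand share in HIEC6 (48.3%) and HCT8 (37.2%).

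The CRC lines were first compared with the normal lines. EGFR was 119 ± 19.5 CPM in CRC (SD, n = 3) and 153 ± 7.93 CPM in normal lines (SD, n = 2), and ERBB2 was 228 ± 76.9 against 127 ± 13.6 CPM. ERBB2 was higher in all 3 CRC lines than in both normal lines, as were 13.2% of 19964 genes, and EGFR and EPGN were lower in all 3, as were 4.99%. The other 7 members overlapped. In the quasi-likelihood test of edgeR, Benjamini-Hochberg adjusted over all genes, 0 of the 10 members had an adjusted p under 0.05, and 0 of 19964 genes did (0%), while 542 genes had an unadjusted p under 0.05. DESeq2 called 143 genes and 0 members.

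The log2 fold change of CRC against normal lines was -0.53 for EGFR (SE 0.29) and 0.64 for ERBB2 (SE 0.35), each with an adjusted p of 0.999 in edgeR. EPGN had the smallest unadjusted p of the members, 0.0405 in edgeR, at a log2 fold change of -4.06 (SE 1.49, adjusted p = 0.999), and it was -1.04 without HIEC6. For AREG the log2 fold change was -0.85 (SE 1.82), and it was 5.45 without NCM460, so that the sign depended on 1 normal line. The remaining members ranged from 0.06 (HBEGF) to 1.66 (ERBB3), with standard errors of 0.58 to 2.31. They too depended on the normal lines: without NCM460 and without HIEC6, respectively, ERBB3 was at 6.10 and 0.69, EREG at 5.34 and 0.016, BTC at 3.40 and 0.51, TGFA at 1.37 and -0.15 and HBEGF at 0.19 and -0.045, and ERBB4 was at -0.84 without NCM460. The median over the 10 members was 0.28, and over all genes it was -0.0048. No difference of a receptor or ligand between these groups passed the test against the spread between lines. In this design an exact rank-sum test of 3 lines against 2 cannot give a two-sided p below 0.2.

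Differences between the CRC lines were examined with the untreated and the hypoxia library of each line as its pair of libraries and treatment as a term in edgeR, a comparison chosen after seeing the data. These libraries measure 1 culture of each condition, so the untreated and the hypoxia library stood in as the replicates of a line. The p-values set a line difference against the variation left after these terms, which includes any difference between lines in the hypoxia response. They describe the libraries of the lines and have no replicate culture behind them. HCT8 had the lowest AREG, EREG, TGFA and HBEGF, and HCT116 the lowest ERBB2 and ERBB3 together with the highest EGFR and ERBB4.

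The ligands EREG, AREG, TGFA and BTC were higher in DLD1 than in HCT8. These 4 of the 10 members passed the test, where 15.7% of 21045 genes passed in either direction. The log2 difference was 4.85 for EREG (SE 0.40, adjusted p = 0.000205 in edgeR), 3.36 for AREG (SE 0.41, adjusted p = 0.00127), 1.91 for TGFA (SE 0.41, adjusted p = 0.0188) and 1.77 for BTC (SE 0.39, adjusted p = 0.0196). The other members did not pass. HBEGF had a log2 difference of 0.92 (SE 0.36, adjusted p = 0.123 in edgeR) and EPGN of 1.30 (SE 1.12, adjusted p = 0.478), and none of the receptors passed, with log2 differences of 0.25 for EGFR (SE 0.29), -0.06 for ERBB2 (SE 0.22), -0.45 for ERBB3 (SE 0.22) and -0.99 for ERBB4 (SE 1.54). Of 9 epithelial markers 1 was higher and 1 lower in DLD1, and of 9 mesenchymal markers 2 were higher, with summed levels of 13.7 CPM in both lines without treatment. EREG and AREG passed with each of the 6 libraries left out in turn. The call of TGFA held in 4 of these 6 fits and that of BTC in 2, being lost when any single DLD1 or HCT8 library was left out. The count of members was 2 without untreated DLD1 or without hypoxic HCT8.

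HCT116 differed from HCT8 in both receptors and ligands. Of the 10 members 8 passed, 6 higher and 2 lower in HCT116, where 27.0% of genes passed. EREG was higher by 5.52 (SE 0.42, adjusted p = 5.36e-05 in edgeR), AREG by 4.46 (SE 0.44, adjusted p = 0.000215), TGFA by 1.94 (SE 0.43, adjusted p = 0.0119), HBEGF by 1.55 (SE 0.36, adjusted p = 0.0150) and EGFR by 1.17 (SE 0.30, adjusted p = 0.0211) on the log2 scale. ERBB3 fell by 1.78 (SE 0.23, adjusted p = 0.000911 in edgeR) and ERBB2 by 1.01 (SE 0.23, adjusted p = 0.0130) from HCT8 to HCT116. ERBB4 passed with an adjusted p of 0.0305 in edgeR, on 20 counts against 0 without treatment, at least 6.72-fold higher with the floor of 3 counts per library, and on 58 against 5 under hypoxia, a ratio of 9.53 (3.86 to 30.5). Markers of epithelial and mesenchymal cells moved with this contrast. Of 9 epithelial markers 5 were lower and 0 higher in HCT116, with CDH1 at 126 CPM against 972 without treatment, and of 9 mesenchymal markers 5 were higher and 0 lower, with summed levels of 46.4 against 13.7 CPM. Their part in the result was not tested. EREG, AREG and ERBB3 passed with each library left out. The calls of EGFR and TGFA held in 5 of 6 such fits, those of ERBB2 and HBEGF in 4 of 6 and that of ERBB4 in 2 of the 4 that tested it. The count of members was 3 without hypoxic HCT8 and 5 without untreated HCT8.

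Between HCT116 and DLD1, all 4 receptors and the ligand BTC differed. Of the 10 members 5 passed, 2 higher and 3 lower in HCT116, where 32.0% of genes passed. ERBB3 was lower in HCT116, at -1.33 (SE 0.23, adjusted p = 0.00312 in edgeR), as were ERBB2, at -0.96 (SE 0.23, adjusted p = 0.0146), and BTC, at -1.18 (SE 0.38, adjusted p = 0.0475). EGFR was higher, at 0.92 (SE 0.29, adjusted p = 0.0435 in edgeR), and ERBB4 passed with an adjusted p of 0.0194, on 20 counts against 1 without treatment, a ratio of 19.6 (3.14 to 813). AREG (log2 difference 1.10, SE 0.39, adjusted p = 0.0607 in edgeR), EREG (0.67, SE 0.34), HBEGF (0.63, SE 0.36) and TGFA (0.03, SE 0.41) did not pass. Markers moved with this contrast too. Of 9 epithelial markers 6 were lower and 0 higher in HCT116, with CDH1 at 126 CPM against 1071 without treatment, and of 9 mesenchymal markers 3 were higher and 0 lower, with summed levels of 46.4 against 13.7 CPM. Their part was not tested. ERBB3 passed with each library left out and ERBB2 in 5 of 6 such fits, while the calls of EGFR and BTC held in 1 of 6 each and that of ERBB4 in 3 of the 4 that tested it. The count of members was 1 without hypoxic DLD1, 8 without untreated HCT116 and 3 without any of the other 4 libraries.

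**Figure D3:**
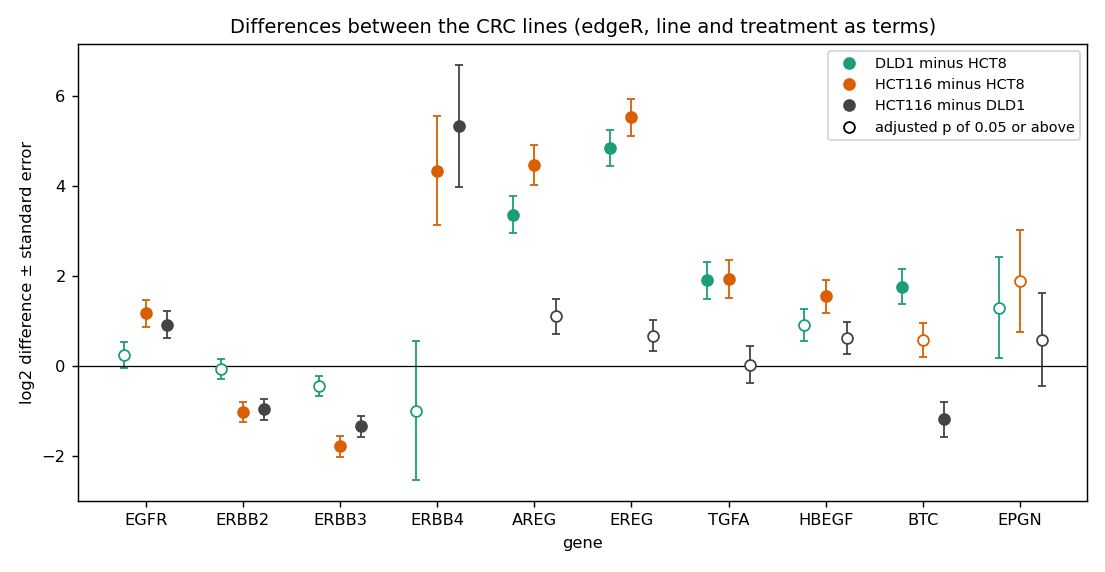
Fitted log2 difference between CRC lines for each gene, with its standard error as the bar; filled points have an adjusted p under 0.05 in edgeR. AREG (3.36 and 4.46) and EREG (4.85 and 5.52) were above HCT8 in both other lines, and ERBB2 and ERBB3 were below 0 in HCT116 against either line. The ERBB4 points rest on few counts.

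The rest of the pathway, taken from 5 lists, was read in the same contrasts, where 15.7%, 27.0% and 32.0% of all genes passed (DLD1 and HCT8, HCT116 and HCT8, HCT116 and DLD1). ERK-responsive genes, which include the phosphatases and feedback proteins induced by the pathway, differed most between HCT116 and HCT8. Of 13 tested, 10 were higher and 1 lower in HCT116 than in HCT8, 4 were higher in DLD1 than in HCT8, and 8 were higher in HCT116 than in DLD1, with medians of 2.43, 0.67 and 1.17 on the log2 scale. The ERK phosphatase gene DUSP4 was at 423 CPM in untreated HCT116 and 9.70 in HCT8, DUSP5 at 199 and 17.5, and DUSP6 at 375 and 73.5. SPRY4, a feedback inhibitor, was at 291 CPM in HCT116 and 34.5 in HCT8. PHLDA1, another ERK target, was at 911 CPM in HCT116, 453 in DLD1 and 61.8 in HCT8. SPRY2, of the same family as SPRY4, was the gene lower in HCT116, at 12.9 CPM against 33.0 in HCT8.

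Of the other ligands, 4 of 5 could be tested. EGF itself, the founding ligand of EGFR, was at 17.9 CPM in HCT8 and at 0.254 and 0.651 CPM in DLD1 and HCT116. Among these lines this was the reverse of AREG and EREG. In the normal lines EGF was at 0.854 CPM (NCM460) and 0.582 CPM (HIEC6), so that it was high in the HCT8 line alone. It was lower in DLD1 than in HCT8 by a log2 difference of -6.06 (SE 0.48, adjusted p = 0.000179 in edgeR) and in HCT116 by -4.20 (SE 0.43, adjusted p = 0.000281). NRG1 and NRG2, neuregulins, passed between HCT116 and DLD1 and NRG1 also between HCT116 and HCT8, all on levels of at most 1.40 CPM in these lines. In HIEC6 the neuregulin NRG4 was at 15.5 CPM and NRG1 at 6.19 CPM, their highest levels of the 8 libraries.

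Of the 6 ligand-shedding genes, 0 passed between DLD1 and HCT8, 2 were lower in HCT116 than in HCT8 (RHBDF1 and RHBDL2), and the same 2 were lower and 1 (RHBDF2) higher in HCT116 than in DLD1. The proteases ADAM10 and ADAM17 passed in none of these contrasts and were at 134 to 189 and 62.9 to 68.4 CPM in the untreated CRC lines. RHBDF1, an inactive rhomboid that handles ADAM17, was at 9.69 CPM in untreated HCT116, 30.2 in DLD1 and 41.8 in HCT8. Of 11 genes that restrain the receptors, 2 were lower in DLD1 than in HCT8 (CBLC and LRIG1), 3 were higher in HCT116 than in HCT8 (ERRFI1, LRIG1 and SH3KBP1) and 5 were higher in HCT116 than in DLD1 (the same 3, CBL and CBLC). The counts against HCT8 are close to the shares of all genes. ERRFI1, a direct inhibitor of EGFR, was at 745 CPM in untreated HCT116, 274 in DLD1 and 122 in HCT8, and at 2953 CPM in hypoxic HCT116. Of 14 adaptors and effectors, 1 (PIK3R1, a PI3K subunit) was higher in DLD1 than in HCT8. In HCT116 2 were higher (GRB7 and PTPN11) and 1 lower (GAB1, a docking protein) than in HCT8, and 3 were higher (GRB7, SHC1 and GRB2, adaptors) and 2 lower (GAB1 and PIK3R1) than in DLD1. None of these adaptor counts is far above the share of all genes.

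Hypoxia was then compared with no treatment in the CRC lines. The members did not move together over the 3 lines: EGFR and TGFA were higher in HCT116, BTC was lower in all 3 lines, and AREG and EREG went in different directions in different lines. In edgeR without the line as a block, 0 of 10 members and 0 of 21045 genes (0%) had an adjusted p under 0.05, with 607 genes at an unadjusted p under 0.05 and 55 genes and 0 members called by DESeq2. With the cell line as a block, which pairs the libraries, 200 genes (0.950%) and 0 members passed. The smallest adjusted p of a member in that fit was that of BTC, 0.125 in edgeR, at a log2 fold change of -1.14 (SE 0.31). EGFR had a log2 fold change of 0.48 (SE 0.24, adjusted p = 0.332 in edgeR) and TGFA 0.67 (SE 0.34, adjusted p = 0.340). DESeq2 with the same block called 1666 genes (7.92%) and 1 member, BTC, at -1.11 (SE 0.33, adjusted p = 0.0137). Over all other settings tried, without and with the block, the adjusted p of BTC was 0.108 to 0.99997 and its log2 fold change -1.88 to -0.55. The library codes in the sample descriptions have no prefix in common between the untreated and the hypoxia libraries. What the prefixes mark was not given in the sources used here, and it cannot be told apart from treatment.

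Within lines, each value below is the ratio of 2 libraries with a 95% interval for counting error, and it has no replicate check. BTC was at 0.576 of its untreated level in DLD1 (0.512 to 0.649), 0.236 in HCT116 (0.189 to 0.292) and 0.518 in HCT8 (0.412 to 0.647). By CPM it was the one member lower in all 3 lines, as were 26.4% of all genes, and no member was higher in all 3, as were 16.2%. The second count depended on the scale. EGFR was above its untreated level in all 3 lines after TMM normalization, by 0.0015 on the log2 scale in HCT8, and EGFR and TGFA were with upper-quartile scaling.

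The HCT116 pair needs a remark on scale, since its median log2 ratio over all genes was -0.363 by CPM, against -0.006 in DLD1 and 0.006 in HCT8. TMM normalization moved the HCT116 ratios up by 0.356 on the log2 scale. TGFA was 2.79 times its untreated level in hypoxic HCT116 (2.70 to 2.88), and 3.57 times after TMM. EGFR was 1.73 times (1.68 to 1.78), and 2.22 times after TMM, and AREG was 1.57 times (1.53 to 1.61), and 2.01 times after TMM. EREG was 1.14 times its untreated level (1.12 to 1.15), ERBB2 0.581 times (0.560 to 0.602) and ERBB3 0.596 times (0.564 to 0.629) by CPM, and 1.46, 0.743 and 0.763 times after TMM. ERBB4 was 2.74 times (1.62 to 4.80), on 58 counts against 20, and HBEGF was 1.02 times (0.915 to 1.13) by CPM and 1.30 times after TMM.

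By CPM, 2 of the 10 members were above 2-fold in HCT116 (TGFA and ERBB4), where 10.4% of genes were, and 1 (BTC) was below 1/2, where 25.2% were. After TMM, 4 were above 2-fold (background 15.3%) and 1 below (background 16.2%). The mesenchymal markers summed to 46.4 CPM in untreated and 183 CPM in hypoxic HCT116, and the epithelial markers to 4942 and 6066 CPM. The part of these markers in the ratios was not tested.

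In DLD1, 0 of the 9 members with a ratio were above 2-fold and 0 below 1/2, where 9.73% and 5.22% of genes were. EGFR was 1.20 times its untreated level (1.15 to 1.24), ERBB2 and ERBB3 were each 1.09 times and TGFA was 1.13 times (1.10 to 1.16). AREG was 0.636 times (0.615 to 0.658), EREG 0.734 times (0.723 to 0.746) and HBEGF 0.563 times (0.498 to 0.635). EGFR, ERBB2, ERBB3 and TGFA were thus slightly above and the other main ligands below their untreated levels in this pair. The mesenchymal sum was 13.7 CPM without treatment and 99.9 CPM under hypoxia in DLD1, and the epithelial sum was 11842 and 13847 CPM. The part of these markers was not tested.

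In HCT8, 0 of the 8 members with a ratio were above 2-fold and 1 (EREG) was below 1/2, where 12.7% and 9.02% of genes were. EREG was 0.488 times its untreated level (0.446 to 0.533) and AREG 0.690 times (0.618 to 0.770). The interval of EREG included 1/2. Its log2 ratio was -1.04 by CPM and -0.938 with upper-quartile scaling, where EREG was no longer below 1/2. EGFR, at 0.995 times (0.958 to 1.03), and TGFA, at 0.993 times (0.942 to 1.05), had intervals that included 1. ERBB2 was 0.958 times (0.936 to 0.980) and ERBB3 0.875 times (0.851 to 0.899), and HBEGF was 0.929 times (0.788 to 1.09). The direction of EGFR, TGFA and ERBB2 in HCT8 depended on the scale. Their log2 ratios were -0.0070, -0.0095 and -0.062 by CPM and 0.091, 0.089 and 0.036 with upper-quartile scaling, and EGFR was also above 0, at 0.0015, after TMM. EPGN was too low for a ratio in HCT8 and had intervals that included 1 in DLD1 and HCT116. The mesenchymal sum was 13.7 CPM without treatment and 17.6 CPM under hypoxia in HCT8, and the epithelial sum was 8963 and 14415 CPM. The part of these markers was not tested.

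**Figure D4:**
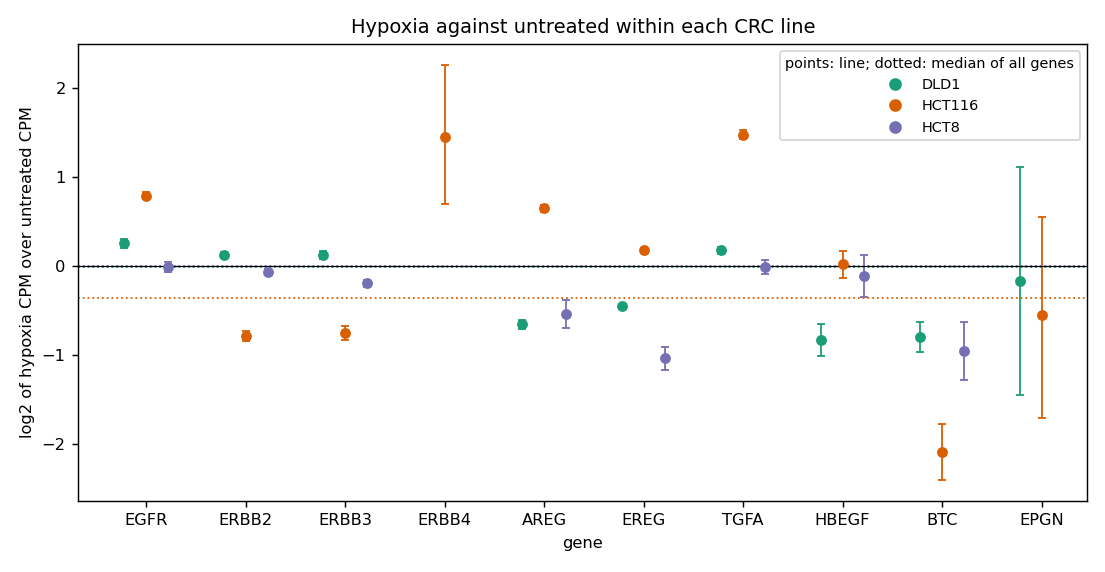
Log2 of the hypoxia over the untreated CPM within each CRC line, with 95% counting intervals; dotted lines mark the median of all genes in each line, which is -0.363 in HCT116 and close to 0 in DLD1 and HCT8. BTC lies below 0 in all 3 lines, and TGFA, EGFR and AREG lie above 0 in HCT116.

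Under hypoxia, edgeR with the line as a block called 0 genes in the 5 lists of other ligands, shedding, restraint, adaptors and ERK-responsive genes. It called 5 of 8 genes of the hypoxia check list and 0.950% of all genes. DESeq2 with the block called 7.92% of all genes. In the pathway lists it called ADAM10 (log2 fold change 0.72) of 6 shedding genes and DUSP5 (1.42) of 13 ERK-responsive genes. It also called GRB7 (1.09) and GAB2 (0.99) of 14 adaptors and effectors, and LRIG3 (-0.72) of 11 restraint genes. None of these counts is far above the share of all genes. ADAM10, the protease that releases BTC among other substrates, was at 166, 134 and 189 CPM in untreated and 215, 237 and 266 CPM in hypoxic DLD1, HCT116 and HCT8.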

How the data were processed

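The authors removed ribosomal RNA, sequenced the libraries, aligned the reads and counted them on genes, and the deposited table holds these raw counts, which were not normalized. The methods of the study give the genome as GRCh37.p13, and the submitters' processing notes name GRCh38 and HISAT2 2.0.4. The counter and its use of strand and of reads with several matches are not given in the sources used here. All 8 columns were used.

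CPM were computed from column totals. Groups came from the sample labels. Tests were run in R 4.3.3 with the quasi-likelihood functions of edgeR 4.0.16 (TMM, Benjamini-Hochberg adjustment over all genes tested, threshold 0.05), for genes reaching 10 counts in 2 or more libraries of a fit, and were tested on simulated data. DESeq2 1.42.0 and limma 3.58.1 were alternatives, along with other normalizations and filters, each library left out and the replicate number as a block. In the hypoxia comparison that number is the cell line and pairs the libraries: deviations from the group mean had correlations of 0.807 to 0.849 in the 3 pairs of 1 line, and of -0.603 to -0.0564 over pairs of unlike lines. Ratios within a line carry exact 95% Clopper-Pearson intervals (SciPy 1.17.1), which cover counting error only, and were given where either library had 10 counts. Positions and merged exon lengths came from GENCODE release 44 on GRCh37, promoters from RefSeq (GRCh38.p14). The members and all gene lists were chosen with earlier results of these data known. All 10 members were named. From the pathway lists, genes past the threshold were named, at most 4 per list and comparison by smallest p. FOSL1, which was among those for DLD1 against HCT8, was left out. EPCAM, CDH1, VIM and CA9 were named from the marker and hypoxia check lists. ADAM17, CBL, KRT8, KRT18, SPRY2, COL1A2, COL3A1, COL6A3 and NRG4 were named after their values were seen.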

Additional observations from a re-analysis of the deposited data

Results flagged for a closer look

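AREG moved in opposite directions under hypoxia in different CRC lines, by more than 1.5-fold each way. Its ratio of hypoxia to untreated CPM was 1.57 in HCT116 (1.53 to 1.61) and 0.636 in DLD1 (0.615 to 0.658), with 95% intervals for counting error only. The difference between the lines was not tested, since each line and condition had 1 library. Only the members were searched for such a pair of ratios, and the share of all genes with one was not counted. After TMM normalization the ratios were 2.01 and 0.650.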

How the results depend on the processing

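The number of genes called depended on the tool and on the block. For CRC against normal lines DESeq2 called 143 genes and 0 members, against 0 genes in edgeR, and the replicate block changed no call there, where a shared number joins different lines. For hypoxia, DESeq2 called 55 genes, the replicate block 200, and DESeq2 with the replicate block 1666 genes and 1 member. With both libraries of a line left out, the block fit called 292 genes without DLD1, 738 without HCT116 and 6 without HCT8, and 0 members each time. Between lines, leaving out 1 library gave 2 to 5 members for DLD1 and HCT8, 3 to 8 for HCT116 and HCT8, and 1 to 8 for HCT116 and DLD1, and a filter of 10 counts in every library gave 3 in the last.

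Signs of some differences turned, and not only of small ones. For CRC against normal lines limma gave -0.090 for ERBB4, 1.15 for AREG and -0.040 for HBEGF, and the replicate block 2.31 for AREG, and with 1 library left out the log2 fold change ranged from -0.84 to 0.72 (ERBB4), -1.84 to 5.45 (AREG), -0.15 to 1.37 (TGFA) and -0.15 to 0.38 (HBEGF). For hypoxia these ranges were -0.058 to 0.96 (EGFR), -0.26 to 0.24 (ERBB2), -0.44 to 0.36 (ERBB3), -1.10 to 0.99 (AREG), -0.92 to 0.72 (EREG), -0.78 to 0.23 (HBEGF) and -0.37 to 0.76 (EPGN). Under limma, the replicate block, and DESeq2 with the block, AREG was -0.046, -0.052 and -0.030 and EREG -0.30, -0.29 and -0.27, against 0.44 and 0.15 in edgeR. The block fit without HCT116 gave -0.59 for AREG, -0.73 for EREG and 0.036 for ERBB2, that without DLD1 -0.23 for EREG and 0.15 for HBEGF, and that without HCT8 -0.16 for EPGN. Between lines the ranges were -0.083 to 0.63 (EGFR), -0.25 to 0.14 (ERBB2) and -1.93 to 2.32 (ERBB4) for DLD1 against HCT8, and -0.0032 to 1.27 (EREG) and -0.91 to 0.83 (TGFA) for HCT116 against DLD1, where limma gave -0.063 for TGFA. The cause was not tested. The planned sum of AREG and AREGB was not run, as the table had no AREGB row. At this depth ERBB4 in DLD1, HCT8 and NCM460 and EPGN in HCT8 could not be measured beyond a few counts.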
